A study of Mus musculus with 9 samples.

Results

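The BCL2 family regulators of apoptosis are described here by 10 genes in mouse kidney: the survival genes Bcl2, Bcl2l1, Mcl1 and Bcl2a1b, the pore-forming effectors Bax and Bak1, and the BH3-only genes Bid, Bcl2l11, Bbc3 and Pmaip1. The rule for them lists gene symbols and sets no threshold on a measured value, and each symbol had 1 row among the 34310 genes of the deposited table. RNA came from kidneys of 9 mice, 3 in each of 3 treatments: lipopolysaccharide with thymosin β4 (LPS+Tβ4), lipopolysaccharide alone (LPS, the endotoxin of Gram-negative bacteria, used to model sepsis-associated kidney injury), and saline. Thymosin β4 is a small peptide that binds monomeric actin. The labels state no dose, route, time after injection, strain, sex or age, and none of the 3 groups received thymosin β4 without LPS, so the peptide was measured in LPS-treated mice alone. The study's title sets the question as whether thymosin β4 eases sepsis-associated acute kidney injury, and the 10 genes were read in LPS against saline, in LPS+Tβ4 against LPS and in LPS+Tβ4 against saline. The first and last of these comparisons share the saline libraries, and each LPS or LPS+Tβ4 library also enters more than 1 comparison.

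BCL2 family proteins decide whether the outer mitochondrial membrane is opened in a stressed cell. Survival members hold the effectors BAX and BAK in check, BH3-only members sense damage and either block the survival members or activate the effectors directly, and the effectors open pores that release cytochrome c and so start the caspase cascade. In the kidney, loss of tubular epithelial cells by this route has been described in ischemic, toxic and septic injury. Much of the family's control acts on the proteins (cleavage of BID, rapid turnover of MCL1, movement of BAX to the membrane), and transcript levels do not report it.

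Libraries held 60.2 to 62 M counts in LPS+Tβ4, 53 to 58.1 M in LPS and 56.6 to 59.5 M in saline kidneys. Levels are given as FPKM (fragments per kilobase of transcript and per M fragments, as deposited). Changes are on the log2 scale with their SE, by edgeR's quasi-likelihood test with TMM scaling, with p-values adjusted by Benjamini-Hochberg over 15015 tested genes and called at 0.05. The 6 proximal tubule markers were present in every library and summed to 945 to 1510 counts per M (CPM) in LPS+Tβ4, 352 to 2320 CPM in LPS and 7080 to 9620 CPM in saline kidneys. They did not move alike: Slc2a2 was at 113 to 168, 9.69 to 15.3 and 172 to 239 CPM in these groups. Cubn was at 27.5 to 65.2, 30.3 to 56.8 and 301 to 399 CPM. In LPS+Tβ4 against LPS, 1 of the 6 was called higher and 0 lower. Transcripts of 4 uroplakins, which mark the urothelium of the renal pelvis, split the libraries within each group: they summed to 0.691, 0.529 and 52.9 CPM in LPS+Tβ4 mice 1, 2 and 3, to 43.6, 40.2 and 0.725 CPM in LPS mice 1, 2 and 3, and to 1.67, 57.5 and 65.3 CPM in saline mice 1, 2 and 3. With Krt20, another urothelial marker, added, the sums were 388, 78.6 and 128 CPM in LPS+Tβ4 mice 1, 2 and 3. They were 617, 266 and 550 CPM in LPS mice and 3.79, 61.1 and 72.3 CPM in saline mice. In LPS+Tβ4 and LPS mice these sums did not follow the split. The libraries therefore differed in how much uroplakin RNA they held, and values within the uroplakin-rich and uroplakin-poor libraries are given for Bcl2, Bax, Bak1, Bid, Bcl2l11 and Pmaip1. Each such value sets 1 or 2 libraries of a group against 1 or 2 of another, with no test, so single mice can set it. In bulk RNA, fewer cells of a type and less RNA per cell cannot be told apart. Markers of neural tissue (8 genes) summed to 497 to 601 CPM in LPS+Tβ4, 29.5 to 181 CPM in LPS and 59.7 to 67.3 CPM in saline kidneys, and their part in the differences between LPS+Tβ4 and the other groups was not tested.

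All 10 genes passed the filter of a mean of 0.5 FPKM and were tested. LPS kidneys against saline kidneys gave 5 called members, 4 higher (Bcl2l1, Mcl1, Bak1 and Bbc3) and 1 lower (Bcl2), beside 43.1% of all tested genes called in that comparison, 20.9% higher and 22.2% lower. LPS+Tβ4 against LPS gave 3 called members, Bcl2a1b higher and Bak1 and Bid lower, beside 6.83% of all tested genes, 4.5% higher and 2.33% lower. LPS+Tβ4 against saline gave 6, with Bcl2l1, Mcl1, Bcl2a1b, Bak1 and Bbc3 higher and Bid lower, beside 24.1% of all tested genes, 12.3% higher and 11.8% lower. The share called in LPS against saline was thus near that of the transcriptome at large. The median change of the 10 was 0.72 in LPS against saline, where the median of all tested genes was 0.02, -0.08 in LPS+Tβ4 against LPS, where it was -0.01, and 0.64 in LPS+Tβ4 against saline, where it was -0.0034. CPM ranges did not overlap for 7, 4 and 9 of the 10 members in these 3 comparisons, beside 54.3%, 26.3% and 50.9% of all tested genes.

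**Figure D1:**
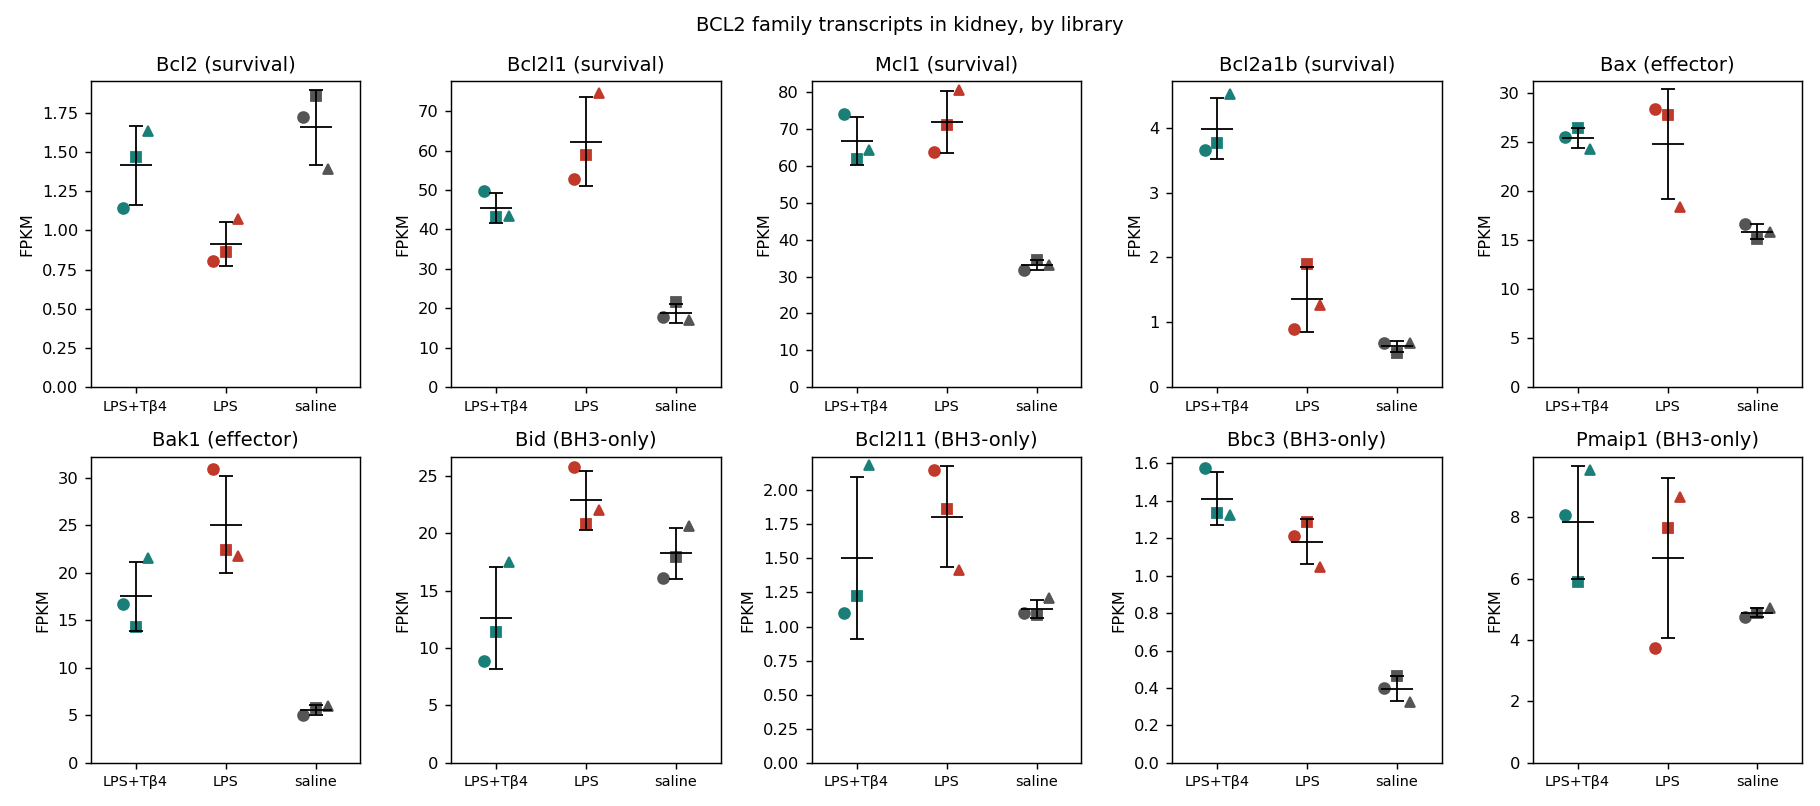
FPKM of the 10 BCL2 family genes in each library, LPS+Tβ4 on the left, LPS in the middle and saline on the right of each panel; symbols stand for mouse 1 (circle), 2 (square) and 3 (triangle), the long bar for the mean and the whiskers for the SD (n = 3). Bcl2l1, Mcl1, Bak1 and Bbc3 lay above every saline library in all 6 LPS-treated mice, Bcl2a1b was highest in LPS+Tβ4, and Bid was lowest in LPS+Tβ4 mice 1 and 2 at 8.88 and 11.4 FPKM.

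Among the survival genes, the 2 most abundant were about 2 to 3 times as high in LPS kidneys as in saline kidneys. Bcl2l1 (ENSMUSG00000007659, GRCm38 chr2:152780668-152831728, minus strand) encodes BCL-XL, a survival protein of the outer mitochondrial membrane. Its level was 49.9, 43.1 and 43.5 FPKM in LPS+Tβ4 mice 1, 2 and 3, 52.9, 59.0 and 74.8 FPKM in LPS mice, and 17.7, 21.5 and 17.1 FPKM in saline mice. All 6 LPS-treated kidneys lay above all 3 saline kidneys, and the LPS+Tβ4 values lay below the LPS values in FPKM, although the CPM ranges of these 2 groups overlapped. Bcl2l1 rose by 1.60 ± 0.21 in LPS against saline (edgeR adjusted p = 0.00072) and by 1.08 ± 0.21 in LPS+Tβ4 against saline (adjusted p = 0.0076). LPS+Tβ4 differed from LPS by -0.52 ± 0.21, which did not pass the test (adjusted p = 0.17), and without LPS mouse 1 the difference was -0.70 and passed (adjusted p = 0.032). BCL-XL also maintains maturing red cells, and 5 erythroid markers summed to 181 to 261 CPM in LPS+Tβ4, 533 to 703 CPM in LPS and 544 to 689 CPM in saline kidneys, with none at 0. In LPS against saline 0 of the 5 were called by edgeR or DESeq2, and 0 had an unadjusted p under 0.05. All 5 were called lower in LPS+Tβ4 against LPS (median -1.52, with 0 called in a fit of those 6 libraries alone) and against saline (median -1.48). Their part in the Bcl2l1 values was not tested.

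Mcl1 (ENSMUSG00000038612, chr3:95658788-95663176, plus strand) encodes a short-lived survival protein that restrains BAK. It stood at 74.1, 62 and 64.3 FPKM in LPS+Tβ4 mice, 63.8, 71.1 and 80.6 FPKM in LPS mice and 31.7, 34.4 and 33.0 FPKM in saline mice. The saline kidneys were the 3 lowest, and LPS+Tβ4 and LPS kidneys overlapped. Mcl1 rose by 0.98 ± 0.19 in LPS against saline (adjusted p = 0.0035) and by 0.82 ± 0.19 in LPS+Tβ4 against saline (adjusted p = 0.014), while LPS+Tβ4 against LPS gave -0.17 ± 0.18 (adjusted p = 0.62). The rise in LPS+Tβ4 against saline no longer passed without saline mouse 2 (0.79, adjusted p = 0.055) or without LPS+Tβ4 mouse 1 (0.68, adjusted p = 0.058). Bcl2l1 and Mcl1 together made up 94.6% to 96.3% of the summed FPKM of the 4 survival genes in LPS+Tβ4, 97.9% to 98.6% in LPS and 95.4% to 96.0% in saline kidneys. Bcl2l2, a survival gene outside the 10 members, is not in that sum, and with it these shares would be lower. It averaged 15.9 ± 1.51 FPKM in LPS+Tβ4, 12.8 ± 5.41 FPKM in LPS and 13.6 ± 0.87 FPKM in saline kidneys (SD, n = 3).

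Bcl2 itself (ENSMUSG00000057329, chr1:106538178-106714274, minus strand), the founding survival gene, was scarce and went the other way. It had 1.14, 1.47 and 1.63 FPKM in LPS+Tβ4 mice, 0.807, 0.862 and 1.07 FPKM in LPS mice and 1.72, 1.86 and 1.39 FPKM in saline mice. Every LPS kidney lay below every other kidney, and the LPS+Tβ4 kidneys overlapped the saline kidneys in FPKM. Bcl2 fell by 1.00 on the log2 scale in LPS against saline (SE 0.22, adjusted p = 0.0067). In LPS+Tβ4 it was 0.55 ± 0.22 above LPS (adjusted p = 0.15) and differed from saline by -0.44 ± 0.22 (adjusted p = 0.17), and neither passed the test. Among uroplakin-rich libraries LPS+Tβ4 differed from LPS by 0.85, and among the poor ones by 0.17. Lymphocytes depend on BCL2. The 6 T cell markers summed to 1.45 to 2.33 CPM in LPS+Tβ4, 0.382 to 2.37 CPM in LPS and 4.01 to 6.78 CPM in saline kidneys, with 4 of the 6 at 0 in LPS mouse 2, and the 1 that was abundant enough to test was called in no comparison by edgeR or DESeq2 and had no unadjusted p under 0.05. The 5 B cell markers summed to 2.26 to 6.13 CPM in LPS+Tβ4, 2.56 to 7.44 CPM in LPS and 6.55 to 6.94 CPM in saline kidneys, with 2 of the 5 at 0 in each LPS library, and LPS and saline kidneys overlapped. Of the 2 B cell markers tested, 1 was called, lower in LPS against saline. The B cell markers did not move alike: Ms4a1 was at 0 in every LPS library and at 0.0807 to 0.345 CPM in saline kidneys, while Cd79b was at 0.526 to 6.89 CPM in LPS and 0.444 to 2.47 CPM in saline kidneys. The part of either cell type in the Bcl2 values was not tested.

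Bcl2a1b (ENSMUSG00000089929, chr9:89199209-89207827, plus strand) encodes an A1 survival protein, a product of leukocytes that NF-kB induces. Levels were low: 3.66, 3.76 and 4.52 FPKM in LPS+Tβ4 mice, 0.891, 1.89 and 1.27 FPKM in LPS mice and 0.674, 0.527 and 0.678 FPKM in saline mice, or 209 to 249, 46 to 93 and 29 to 38 counts. The 3 LPS+Tβ4 kidneys were the highest, with no overlap with either of the other groups. Bcl2a1b rose by 2.41 ± 0.38 in LPS+Tβ4 against saline (adjusted p = 0.003) and by 1.47 ± 0.36 in LPS+Tβ4 against LPS (adjusted p = 0.048), and LPS against saline gave 0.94 ± 0.36 (adjusted p = 0.066). Without LPS mouse 1 the change in LPS against saline was 1.27 and passed (adjusted p = 0.0098). The macrophage markers (6 genes, none at 0) summed to 82.6 to 97.3 CPM in LPS+Tβ4, 66.0 to 71.8 CPM in LPS and 58.0 to 99.4 CPM in saline kidneys. They did not move alike: Cd68 was at 11 to 20.8, 19.8 to 34 and 1.56 to 2.92 CPM in these groups, and Csf1r at 22.7 to 29.7, 10.1 to 17.2 and 30 to 61.8 CPM. In LPS against saline 1 was called higher and 2 lower. In LPS+Tβ4 against LPS edgeR called 0 and DESeq2 called 3, with 4 at an unadjusted p under 0.05, all of them higher. Neutrophil markers (8 genes) summed to 26.9 to 89.0 CPM in LPS+Tβ4, 23.4 to 48.7 CPM in LPS and 0.674 to 2.59 CPM in saline kidneys, with 2 to 4 of the 8 at 0 in each saline library and Ly6g, the neutrophil surface marker, at no more than 0.112 CPM in LPS+Tβ4 and 0.248 CPM in LPS kidneys. Whether leukocyte number had a part in the Bcl2a1b difference was not tested.

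The A1 gene has near-identical copies, so the single row is uncertain. In the annotation, the transcript of Bcl2a1a matched 98.2% and that of Bcl2a1d 99.1% of the 817 bases of the Bcl2a1b transcript, and 14.2% of all 150-base windows of Bcl2a1b occurred without a mismatch in either copy. Bcl2a1a averaged 1.82 ± 0.19 FPKM in LPS+Tβ4, 0.786 ± 0.095 FPKM in LPS and 0.339 ± 0.18 FPKM in saline kidneys (SD, n = 3). Bcl2a1d averaged 1.93 ± 0.63, 0.83 ± 0.29 and 0.27 ± 0.12 FPKM in LPS+Tβ4, LPS and saline kidneys (SD, n = 3). The 3 rows thus had the same order of group means. Summed into 1 feature, they held 464, 390 and 464 counts in LPS+Tβ4 mice, 109, 188 and 170 counts in LPS mice and 75, 65 and 67 counts in saline mice. The sum rose by 1.29 ± 0.31 in LPS+Tβ4 against LPS (adjusted p = 0.047), by 2.40 ± 0.33 in LPS+Tβ4 against saline (adjusted p = 0.0017) and by 1.11 ± 0.32 in LPS against saline (adjusted p = 0.021).

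**Figure D2:**
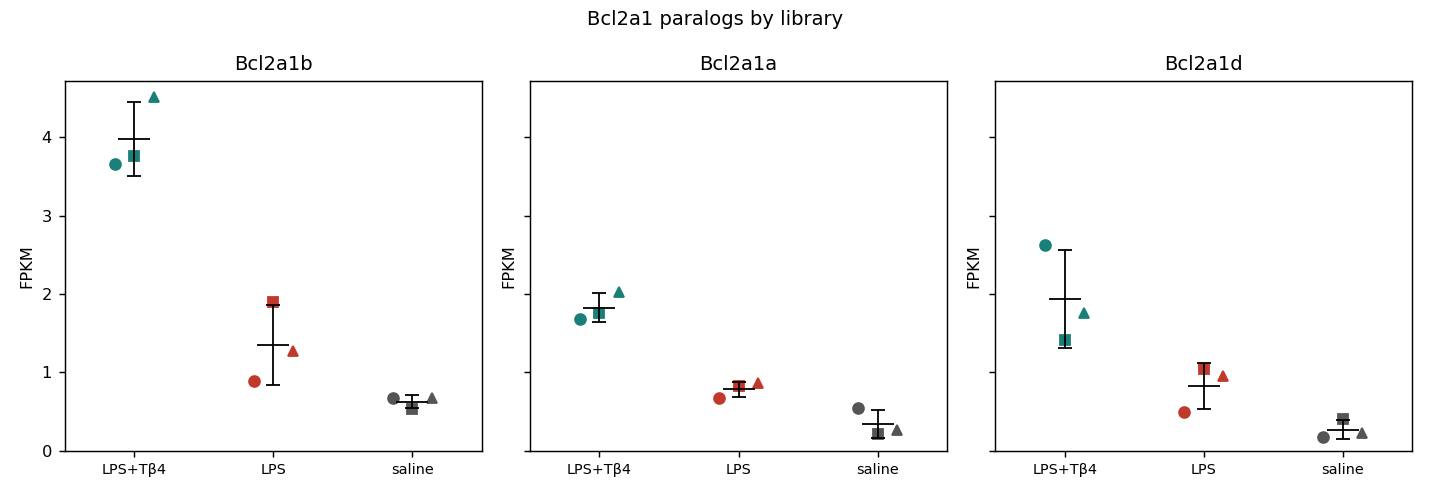
FPKM of Bcl2a1b and its copies Bcl2a1a and Bcl2a1d in each library, with LPS+Tβ4 on the left, LPS in the middle and saline on the right; long bars are means, whiskers SD (n = 3), and circle, square and triangle are mice 1, 2 and 3. In each panel the 3 LPS+Tβ4 libraries lie above all LPS and saline libraries.

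The start regions of the 3 copies also share a match to TGANTCA, a loose form of the AP-1 core that leaves the middle base free. That base is C or G in the strict core of FOS and JUN proteins, and A in these matches. The stretches around the match are shown because these rows moved together. They come from RefSeq's promoter windows (GRCm38.p6, 250 bases before to 50 after a start site), on the strand of each gene. Capitals mark TGANTCA (either strand, a motif found in 7.81% of 32851 such windows), which lies 164 bases before the start in Bcl2a1b (chr9:89199084-89199140), 120 before it in Bcl2a1a (chr9:88956775-88956831, plus strand) and 114 before it in Bcl2a1d (chr9:88731933-88731989, minus strand).
Bcl2a1b: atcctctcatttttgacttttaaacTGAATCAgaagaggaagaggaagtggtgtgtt
Bcl2a1a: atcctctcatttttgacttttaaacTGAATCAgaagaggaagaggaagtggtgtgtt
Bcl2a1d: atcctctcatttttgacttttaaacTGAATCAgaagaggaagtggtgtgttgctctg
The printed stretches of Bcl2a1b and Bcl2a1a are the same. A motif match is a description of the letters, with no measurement of binding.

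Windows were found for 9 of the 10 members, 14 start sites in all, and an NF-kB motif (GGG, then 2 free bases, then TTTCC, on either strand, in 1.63% of all windows) occurred in 3 of the 14. These 3 belonged to Bcl2l1 (1 of 3 start sites), Mcl1 and Bbc3 (1 of 3 start sites), which were 3 of the 4 members that rose in LPS against saline, and they are shown for that reason. Bak1, the other member that rose, had no match among the windows found. These matches describe letters alone, and their part in the rises was not tested. The match, in capitals and on the opposite strand of the gene in each, lies 218 bases before the start in Bcl2l1 (chr2:152830901-152830960), 28 before it in Mcl1 (chr3:95658668-95658720) and 136 before it in Bbc3 (chr7:16309422-16309481).
Bcl2l1: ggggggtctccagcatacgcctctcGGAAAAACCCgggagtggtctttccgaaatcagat
Mcl1: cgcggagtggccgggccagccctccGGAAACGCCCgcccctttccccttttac
Bbc3: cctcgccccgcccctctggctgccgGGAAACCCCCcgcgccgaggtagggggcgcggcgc
The STAT motif TTCNNNGAA and the interferon response motif (GAAA, then 2 free bases, then GAAA), found in 8.3% and 3.44% of all windows on either strand, matched none of the 14, which says only that these letters are not in these windows.

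Of the effectors, Bak1 had the largest rise of the 10 members in LPS against saline. Bak1 (ENSMUSG00000057789, chr17:27019810-27029009, minus strand) encodes BAK, which sits in the outer mitochondrial membrane. Its level was 16.7, 14.3 and 21.5 FPKM in LPS+Tβ4 mice, 30.9, 22.4 and 21.8 FPKM in LPS mice and 4.99, 5.75 and 5.97 FPKM in saline mice. No saline kidney came near the other groups, and the highest LPS+Tβ4 value lay just under the lowest LPS value. Bak1 rose by 2.00 ± 0.14 in LPS against saline (adjusted p = 7.2e-05), about 4-fold, and by 1.44 ± 0.14 in LPS+Tβ4 against saline (adjusted p = 5e-04), and it fell by 0.56 in LPS+Tβ4 against LPS (SE 0.14, adjusted p = 0.048). Within the uroplakin-rich libraries LPS+Tβ4 differed from LPS by -0.41, and within the poor ones by -0.60. On the opposite strand, Ggnbp1 overlaps 18.2% and the predicted gene Gm50253 7.35% of the exonic bases of Bak1. Both of these fell in LPS against saline (Ggnbp1 by 1.99 and Gm50253 by 0.88 on the log2 scale, adjusted p = 0.0012 and 0.038), the opposite direction to Bak1. In LPS+Tβ4 against LPS, Ggnbp1 differed by -0.0096 (adjusted p = 0.99). Gm50253 differed there by -0.60 (adjusted p = 0.24), the same direction as Bak1. The part of shared reads in the Bak1 values was not tested.

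Bax (ENSMUSG00000003873, chr7:45461697-45466898, minus strand), whose protein moves from the cytosol to mitochondria, differed less. It stood at 25.5, 26.4 and 24.3 FPKM in LPS+Tβ4 mice, 28.4, 27.7 and 18.3 FPKM in LPS mice and 16.6, 15.1 and 15.9 FPKM in saline mice. All LPS-treated kidneys were above all saline kidneys, and LPS mouse 3 stood apart from its group at a level closer to saline. LPS against saline gave 0.47 ± 0.17 (adjusted p = 0.051) and LPS+Tβ4 against saline 0.47 ± 0.17 (adjusted p = 0.079), neither past the threshold, and LPS+Tβ4 against LPS gave -0.0012 ± 0.17 (adjusted p = 1). The change in LPS against saline passed without LPS mouse 3 (0.61, adjusted p = 0.018), without saline mouse 1 (0.60, adjusted p = 0.043) and without LPS+Tβ4 mouse 3 (0.53, adjusted p = 0.035). The change in LPS+Tβ4 against saline passed without LPS mouse 2 (0.51, adjusted p = 0.047) and without LPS mouse 3 (0.47, adjusted p = 0.044). LPS mouse 3 was also the uroplakin-poor LPS library: LPS differed from saline by 0.69 among the uroplakin-rich libraries and by 0.01 between the poor ones, and LPS+Tβ4 from LPS by -0.33 and 0.40.

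The 4 BH3-only genes all had positive changes in LPS against saline, of which that of Bbc3 alone passed the test, and changes of both signs in LPS+Tβ4 against LPS and against saline. Bid (ENSMUSG00000004446, chr6:120891930-120916853, minus strand) encodes the protein that caspase-8 cleaves to carry a death receptor signal to mitochondria, and it was the most abundant of the 4. Levels were 8.88, 11.4 and 17.5 FPKM in LPS+Tβ4 mice, 25.8, 20.8 and 22.0 FPKM in LPS mice and 16.1, 18 and 20.6 FPKM in saline mice. LPS+Tβ4 kidneys lay below all LPS kidneys, and LPS+Tβ4 mouse 3, the uroplakin-rich library of that group, lay within the saline range in FPKM, while mice 1 and 2 lay below it. Bid fell by 0.93 in LPS+Tβ4 against LPS (SE 0.19, adjusted p = 0.032) and by 0.76 in LPS+Tβ4 against saline (SE 0.19, adjusted p = 0.022), while LPS against saline gave 0.16 ± 0.19 (adjusted p = 0.51). Among uroplakin-rich libraries LPS+Tβ4 differed from LPS by -0.52, and among the poor ones by -1.23. The fall against saline did not pass without saline mouse 1 (-0.75, adjusted p = 0.072), saline mouse 3 (-0.61, adjusted p = 0.11), LPS+Tβ4 mouse 1 (-0.60, adjusted p = 0.064) or LPS+Tβ4 mouse 2 (-0.73, adjusted p = 0.068). Bcl2l13, which overlaps 17.7% of the exonic bases of Bid on the opposite strand, differed by 0.24 in LPS+Tβ4 against LPS (adjusted p = 0.47). It differed by -0.11 in LPS+Tβ4 against saline (adjusted p = 0.71).

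Bbc3 (ENSMUSG00000002083, chr7:16308393-16318205, plus strand) encodes PUMA, a BH3-only protein that p53 induces and that binds all survival members. It was rare, at 1.57, 1.33 and 1.32 FPKM in LPS+Tβ4 mice, 1.21, 1.29 and 1.05 FPKM in LPS mice and 0.399, 0.462 and 0.326 FPKM in saline mice, or 191 to 234, 147 to 165 and 48 to 65 counts. The saline kidneys were far below the rest. Bbc3 rose by 1.41 ± 0.26 in LPS against saline (adjusted p = 0.0029) and by 1.61 ± 0.26 in LPS+Tβ4 against saline (adjusted p = 0.0033), and LPS+Tβ4 against LPS gave 0.21 ± 0.25 (adjusted p = 0.65).

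Bcl2l11 (ENSMUSG00000027381, chr2:128126038-128162547, plus strand), which encodes BIM, passed in none of the 3 comparisons. Its values were 1.10, 1.22 and 2.18 FPKM in LPS+Tβ4 mice, 2.15, 1.86 and 1.41 FPKM in LPS mice and 1.10, 1.09 and 1.21 FPKM in saline mice. LPS mice 1 and 2 and LPS+Tβ4 mouse 3, the LPS-treated kidneys rich in uroplakins, held the 3 highest values, and the uroplakin-rich saline kidneys did not share them. LPS against saline gave 0.50 ± 0.23 (adjusted p = 0.11), with 0.63 among uroplakin-rich and 0.23 between uroplakin-poor libraries, and it passed without LPS+Tβ4 mouse 3 (0.55, adjusted p = 0.032). LPS+Tβ4 against LPS gave -0.33 ± 0.23 (adjusted p = 0.41), with 0.0062 among rich and -0.39 among poor libraries, and LPS+Tβ4 against saline 0.17 ± 0.23 (adjusted p = 0.64).

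Pmaip1 (ENSMUSG00000024521, on chromosome 18) encodes NOXA, which neutralises MCL1. It had 8.07, 5.90 and 9.56 FPKM in LPS+Tβ4 mice, 3.74, 7.66 and 8.67 FPKM in LPS mice and 4.76, 4.89 and 5.05 FPKM in saline mice. LPS mouse 1 had the lowest value of all 9 kidneys, so the LPS group spanned the saline range. Changes of 0.34 ± 0.34 in LPS against saline (adjusted p = 0.46), 0.12 ± 0.34 in LPS+Tβ4 against LPS (adjusted p = 0.86) and 0.46 ± 0.34 in LPS+Tβ4 against saline (adjusted p = 0.37) did not pass. Without LPS mouse 1, LPS against saline was 0.72 and passed (adjusted p = 0.018). LPS differed from saline by -0.062 among the uroplakin-rich libraries and by 0.74 between the poor ones, and LPS+Tβ4 from LPS by 0.72 and -0.43. The value of -0.062 depended on LPS mouse 1, at 3.74 FPKM. LPS mouse 2, also rich in uroplakins, had 7.66 FPKM, above the rich saline libraries at 4.89 and 5.05 FPKM. Whether these signs followed the uroplakins was not tested.

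**Figure D3:**
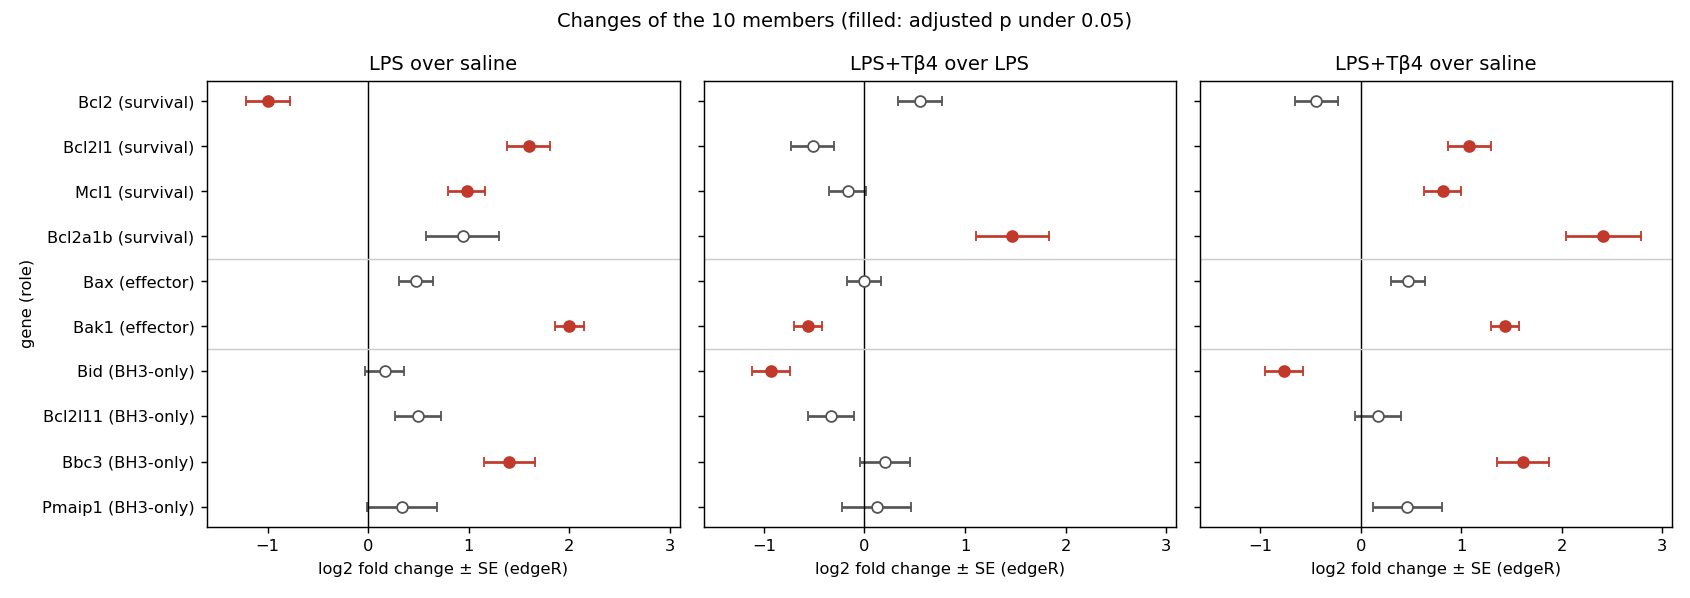
Log2 fold change of each member with its SE from edgeR, in LPS over saline (left), LPS+Tβ4 over LPS (middle) and LPS+Tβ4 over saline (right), ordered by role; filled red points have an adjusted p under 0.05. The filled points are 5 in the left panel, 3 in the middle panel and 6 in the right panel, and Bak1 is filled in all 3.

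The 3 calls between LPS+Tβ4 and LPS lay close to the threshold, and 1 library was enough to end them. Without saline mouse 1, 2 or 3, LPS mouse 2 or 3, or LPS+Tβ4 mouse 1 or 2, none of the 10 members was called, and a fit of the 6 LPS and LPS+Tβ4 libraries alone called 0 members by edgeR. In the fit of 9 libraries 5 members had an unadjusted p under 0.05, and DESeq2 called 3. Over all alternatives the change of Bcl2a1b stayed between 1.10 and 1.82, that of Bak1 between -0.69 and -0.46 and that of Bid between -1.18 and -0.76. The highest adjusted p of any alternative was 0.16 for Bcl2a1b, 0.19 for Bak1 (both without LPS+Tβ4 mouse 2) and 0.14 for Bid (also without LPS+Tβ4 mouse 2). The directions of these 3 genes held in every alternative run, and the calls in some of them.

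Ratios of transcripts within a library, given with no test, show how these members stood to each other in each kidney. Bax over Bcl2 was 22.4, 17.9 and 14.9 in LPS+Tβ4 mice, 35.2, 32.1 and 17.1 in LPS mice and 9.63, 8.12 and 11.4 in saline mice. The saline kidneys had the 3 lowest ratios, and LPS mouse 3 lay within the LPS+Tβ4 range. Bcl2l1 over Bcl2 was 43.7, 29.4 and 26.7 in LPS+Tβ4 mice, 65.5, 68.5 and 69.9 in LPS mice and 10.3, 11.6 and 12.3 in saline mice, with no overlap between any 2 groups. Bak1 over Bax was 0.656, 0.542 and 0.887 in LPS+Tβ4 mice, 1.09, 0.81 and 1.19 in LPS mice and 0.301, 0.381 and 0.377 in saline mice. Summed over roles, the picture was flatter: Bax plus Bak1 over the 4 survival genes was 0.328, 0.368 and 0.402 in LPS+Tβ4 mice, 0.501, 0.377 and 0.254 in LPS mice and 0.417, 0.357 and 0.418 in saline mice, and all 3 groups overlapped. The survival gene Bcl2l2 is not counted in these ratios. The 4 BH3-only genes summed to 19.6, 19.9 and 30.6 FPKM in LPS+Tβ4 mice, 32.9, 31.6 and 33.1 FPKM in LPS mice and 22.4, 24.4 and 27.2 FPKM in saline mice, and Bid made up 45.2% to 57.5%, 65.8% to 78.4% and 72.1% to 75.8% of that sum.

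**Figure D4:**
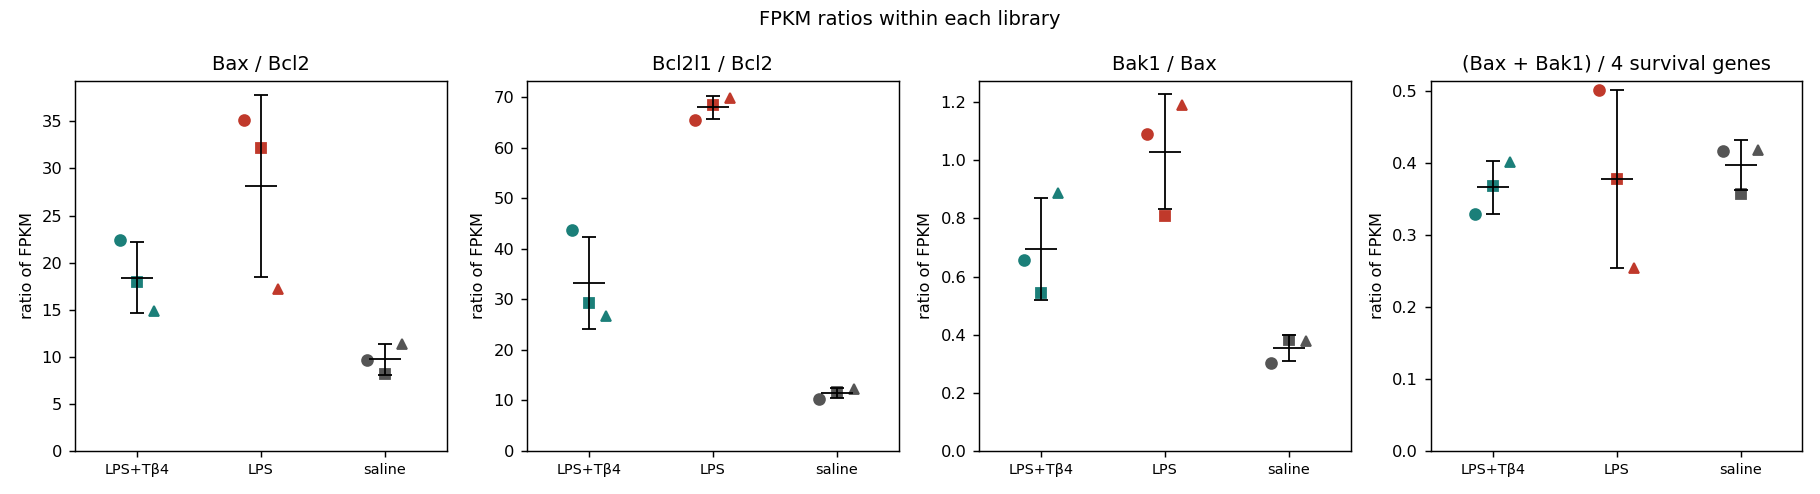
Ratios of FPKM within each library for Bax over Bcl2, Bcl2l1 over Bcl2, Bak1 over Bax, and Bax plus Bak1 over the 4 survival genes, with LPS+Tβ4 on the left, LPS in the middle and saline on the right; long bars are means, whiskers SD (n = 3), and circle, square and triangle are mice 1, 2 and 3. The groups are apart for Bcl2l1 over Bcl2, and overlap for the summed effectors over survival genes, where LPS mice range over 0.254 to 0.501.

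Of 15 further BCL2 family genes, 12 were tested and 2 rose in LPS against saline, Bmf and Bcl2a1d, with a median change of 0.70. Beside that, 43.1% of all tested genes were called, 20.9% higher and 22.2% lower. Bmf, a BH3-only gene linked to loss of cell attachment, had 6.06 ± 3.48 FPKM in LPS+Tβ4, 11.3 ± 3.21 FPKM in LPS and 2.93 ± 1.27 FPKM in saline kidneys (SD, n = 3) and rose by 1.79 ± 0.39 in LPS against saline (adjusted p = 0.0066). Bcl2a1d rose by 1.48 ± 0.48 (adjusted p = 0.035), a call lost without saline mouse 1 or 3 or LPS mouse 2 or 3 (1.31 to 1.43, adjusted p up to 0.10), and Bcl2a1a (1.02, adjusted p = 0.079) and the mitophagy receptor Bnip3l (0.33, adjusted p = 0.095) did not pass. No gene of this list passed in LPS+Tβ4 against LPS by edgeR, where 5 had an unadjusted p under 0.05, DESeq2 called 2 and limma on log2(FPKM + 1) called 1. Bok, an effector-like gene chosen for mention after its values were seen, was highest in the uroplakin-rich kidneys among the LPS-treated mice, and less so among the saline mice: it had 4.78, 4.67 and 18.2 FPKM in LPS+Tβ4 mice, 23.2, 11.1 and 4.89 FPKM in LPS mice and 5.22, 10.5 and 6.18 FPKM in saline mice. Hrk, a BH3-only gene of neurons also chosen after its values were seen, fell below the filter, with 0.0817, 0.189 and 0.112 FPKM in LPS+Tβ4 mice, 0 in all 3 LPS mice and 0.0109, 0 and 0 FPKM in saline mice, in the same kidneys in which the neural markers were high.

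**Figure D5:**
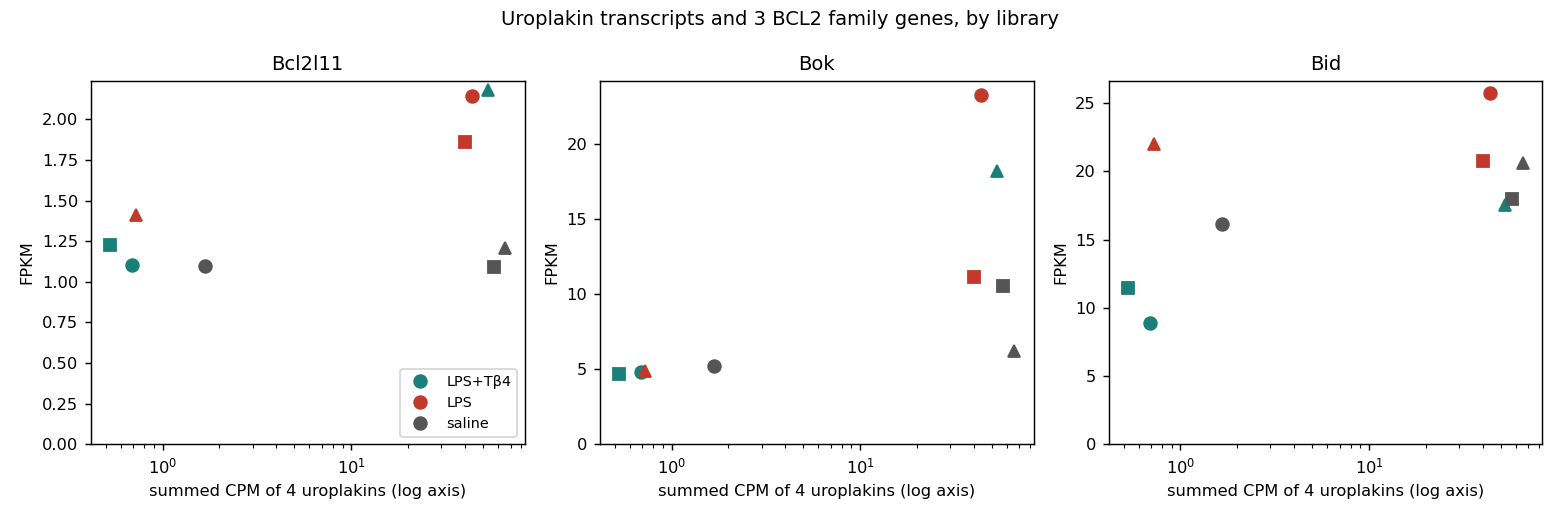
FPKM of Bcl2l11, Bok and Bid (linear vertical axes) against the summed CPM of 4 uroplakins (horizontal log axis) in the 9 libraries; colours mark LPS+Tβ4, LPS and saline, and circle, square and triangle mice 1, 2 and 3. Bcl2l11 and Bok are highest in LPS mouse 1, LPS mouse 2 and LPS+Tβ4 mouse 3, all at 40.2 CPM of uroplakins or more.

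All 16 genes of mitochondrial execution, which act downstream of the pore, were tested, and 3 rose and 4 fell in LPS against saline, with a median of -0.20. That count is near the share of all tested genes called there, 43.1%. Of the 4 falls, 1 was lost in 6 of the 9 fits that leave out 1 library, and another in 1 of them. Apaf1, the scaffold that cytochrome c assembles into the apoptosome, averaged 1.52 ± 0.37 FPKM in LPS+Tβ4, 2.63 ± 0.67 FPKM in LPS and 0.672 ± 0.099 FPKM in saline kidneys (SD, n = 3) and rose by 1.84 ± 0.28 in LPS against saline (adjusted p = 0.0012). The genes that fell included Aifm1, a flavoprotein of the intermembrane space (-1.38, adjusted p = 0.00094), and Vdac1, the main channel of the outer membrane (-1.24, adjusted p = 0.0024).

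Inhibitors of apoptosis that bind caspases or TNF receptor complexes were led by Birc3, which encodes cIAP2. Of 7 tested, 2 rose and 1 fell in LPS against saline, again near the 43.1% of all tested genes, with a median of 0.31. Birc3 had 12.3, 8.07 and 19.4 FPKM in LPS+Tβ4 mice, 32.0, 31.3 and 24.7 FPKM in LPS mice and 1.74, 2.14 and 1.59 FPKM in saline mice, with no overlap between any 2 groups. It rose by 3.85 ± 0.28 in LPS against saline (adjusted p = 7.2e-05). Birc2, which encodes cIAP1, rose by 1.59 ± 0.18 in LPS against saline (adjusted p = 0.00039), Birc6 fell by 0.71 (adjusted p = 0.0048), and the caspase inhibitor Xiap gave 0.31 ± 0.11 (adjusted p = 0.056).

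In LPS against saline 43.1% of all tested genes were called, 20.9% higher and 22.2% lower. Beside that, 4 of 9 tested death receptor genes, upstream of the mitochondria, rose and none fell (median 0.70, 5 at an unadjusted p under 0.05, all higher). These were the TNF receptor Tnfrsf1a by 2.1 ± 0.14 (adjusted p = 4.3e-05), the initiator caspase Casp8 by 1.09 ± 0.14 (adjusted p = 0.00058), the ligand Tnfsf10, or TRAIL, by 2.55 ± 0.62 (adjusted p = 0.011) and the caspase-8 inhibitor Cflar by 0.70 ± 0.24 (adjusted p = 0.043). The Cflar call was lost without any 1 saline mouse, LPS mouse 2 or 3 or LPS+Tβ4 mouse 1 or 2 (adjusted p up to 0.11, change as low as 0.39). Among the LPS-treated mice Tnfsf10 was far higher in the uroplakin-rich kidneys, and the saline mice differed little, with 9.46, 9.33 and 37.8 FPKM in LPS+Tβ4 mice, 70.1, 60.1 and 16.6 FPKM in LPS mice and 5.61, 9.53 and 6.96 FPKM in saline mice. Of 12 tested genes of p53 and its targets 4 rose and 1 fell (median 0.60), near the same 43.1%. The cell cycle inhibitor Cdkn1a rose by 3.49 ± 0.39 (adjusted p = 0.00032), the stress gene Gadd45a by 2.00 ± 0.36 (adjusted p = 0.0027) and the nuclease gene Aen by 1.39 ± 0.23 (adjusted p = 0.002), and Ccng1 fell by 0.77 (adjusted p = 0.018), a call lost without saline mouse 1 or LPS mouse 2 or 3 (adjusted p up to 0.086). The remaining rise of this list was lost in 5 of the 9 fits that leave out 1 library.

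Stress regulators of BH3-only genes had the highest median of the 7 lists, 2.80 in LPS against saline, with 6 of 8 higher and 1 lower. Beside that, 43.1% of all tested genes were called, 20.9% higher and 22.2% lower. Atf4, the transcription factor of the integrated stress response, averaged 64.0 ± 7.2 FPKM in LPS+Tβ4, 121 ± 21 FPKM in LPS and 26.4 ± 2.0 FPKM in saline kidneys (SD, n = 3). Atf4 rose by 2.06 ± 0.21 in LPS against saline (adjusted p = 0.00023). Its target Ddit3, which encodes CHOP, rose by 2.23 ± 0.26 in LPS against saline (adjusted p = 4e-04), the CHOP target Trib3 by 4.12 ± 0.49 (adjusted p = 0.00043) and the glutathione-degrading Chac1 by 4.23 ± 0.48 (adjusted p = 0.00035). Foxo1, a transcription factor that drives Bcl2l11, was the 1 that fell, by 0.69 (adjusted p = 0.011). Among 5 genes listed for MCL1 turnover 3 rose and none fell (median 0.79, with 3 at an unadjusted p under 0.05, all higher): Trib1, an adaptor of the COP1 ubiquitin ligase, by 2.24 ± 0.34 (adjusted p = 0.0013), the ubiquitin ligase subunit Fbxw7 by 0.88 ± 0.19 (adjusted p = 0.0069) and the mitochondrial ligase Marchf5 by 0.79 ± 0.28 (adjusted p = 0.048), while Huwe1 gave -0.24 ± 0.19 (adjusted p = 0.33). The Marchf5 call was lost without any 1 saline mouse, LPS mouse 2 or 3 or LPS+Tβ4 mouse 2 (adjusted p up to 0.14, change as low as 0.53).

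The 7 lists held 12, 16, 7, 9, 12, 8 and 5 tested genes, in the order above. In LPS+Tβ4 against LPS, 3 of these genes were called, all lower, beside 6.83% of all tested genes, and Birc3 and Atf4 were among them. The members Bak1 and Bid were lower there too. Birc3 fell by 1.21 (SE 0.25, adjusted p = 0.031) and Atf4 by 0.99 (SE 0.20, adjusted p = 0.032). These calls too rested on single libraries. Birc3 was lost without any 1 but LPS mouse 1 and LPS+Tβ4 mouse 3 (adjusted p up to 0.11), and Atf4 was lost without any 1 but LPS mouse 1 (adjusted p up to 0.14). Without LPS mouse 1, 17 genes of the lists were called, 5 higher and 12 lower, beside 2672 of all 15015 tested genes. DESeq2 on all 9 libraries called 13, 2 higher and 11 lower, beside 2442 of the 15015. No gene of the death receptor, p53 and MCL1 turnover lists passed there by edgeR, where 1, 3 and 1 genes had an unadjusted p under 0.05, all lower, and DESeq2 called 0, 3 and 0 genes. The fit of the 6 LPS and LPS+Tβ4 libraries alone called 0 genes in each of the 7 lists. In LPS+Tβ4 against saline, where 24.1% of all tested genes were called, 5 of the 8 stress regulators rose and 1 fell, 4 of 12 p53 genes rose and 1 fell, and 2 of 12 other BCL2 family genes rose (Bcl2a1a by 2.15 and Bcl2a1d by 2.60). The fall among the stress regulators, that of Foxo1, was lost in 5 of the 9 fits that leave out 1 library, and the fall and 1 of the rises among the p53 genes in 6 of the 9 each. Of the other lists, 2 of 16 execution genes rose and 2 fell, 2 of 7 inhibitors of apoptosis rose and 1 fell, 2 of 9 death receptor genes rose, and 1 of 5 MCL1 turnover genes rose. The 4 calls among the execution genes and the fall among the inhibitors were each lost in 2 to 5 of the 9 fits.

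The genes with the most similar pattern over the 9 libraries, by Pearson's r of log2(CPM + 1), are named as a description: the 9 points fall into 3 treatment groups, which set much of any r. Bcl2l1 was closest to Gvin1 (r = 0.997), an interferon-inducible large GTPase gene, and Qsox1 (r = 0.994). Mcl1 was closest to the phosphodiesterase Pde4b and to the stress factor Atf3 (r = 0.996 each), and Bak1 to Flot2 (r = 0.994) and Clic1 (r = 0.993). Bcl2a1b was closest to Clec4a2 (r = 0.973), a lectin receptor of myeloid cells, and the chemokine Ccl9 (r = 0.972). The nearest to Bcl2 were Cwh43 (r = 0.975) and the cell cycle inhibitor Cdkn2c (r = 0.973), and to Bax Mcrip1 (r = 0.975) and Nxt1 (r = 0.974). Among BH3-only genes, Bbc3 was closest to the proteasome subunit Psmb4 (r = 0.989) and the acute-phase gene Orm2 (r = 0.988), Bid to Ovol1 (r = 0.964) and Asb7 (r = 0.95), Bcl2l11 to Zfp518a (r = 0.983), and Pmaip1 to Abhd5 (r = 0.926) and C1qtnf1 (r = 0.914). Within the family, the closest pair was Bcl2l1 and Mcl1 (r = 0.977).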

How the data were processed

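Per the labels' protocols, kidney mRNA was selected by its poly(A) tail and made into dUTP strand-specific libraries, 1 per mouse, read from both ends. The deposited table holds a raw count and an FPKM value per gene and library, both made by the authors. cutadapt 1.9, HISAT2 2.2.1, StringTie 2.1.6, DESeq2, edgeR and the build GRCm38 are named in the submitters' processing notes with no role. Which program counted the reads, with which strand setting and annotation, is not given in the sources used here, so reads of overlapping genes on opposite strands may be mixed.

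edgeR 4.0.16 in R 4.3.3 tested the counts. After TMM scaling, genes averaging 0.5 FPKM or more were fitted by quasi-likelihood in all 9 libraries with 3 group means and no covariate. Tests were 2-sided, adjusted by Benjamini-Hochberg over all tested genes, with a threshold of 0.05. The SE is the size of the change divided by the square root of F. The authors' FPKM values are not TMM-scaled, so FPKM and CPM ranges can differ in overlap. With 3 mice against 3, an exact permutation test cannot go below 0.1, so no single value was tested that way. Changes of known size were simulated in 59 to 74 genes of each size, with the rest of the 15015 genes unchanged. Of the 1.5-fold changes 0% were recovered in each comparison. Of the 2-fold changes 7.25% to 10.2% were recovered, and of the 4-fold changes 51.6% to 56.5%, with 0 or 1 false calls. The data had many more called genes (6473 in LPS against saline, 1025 in LPS+Tβ4 against LPS and 3617 in LPS+Tβ4 against saline). More calls make the adjustment less strict, so these rates are not the power of the comparisons here. A change that did not pass is still not shown to be absent. The p-values measure the spread between the mice of these groups.

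The members and all gene lists were chosen with earlier results of these data known. All 10 members were named. Of each list, the 4 genes with the smallest adjusted p in LPS against saline were named, with every gene called in LPS+Tβ4 against LPS, and for each member the 2 most similar tested genes. Foxo1, Bok, Hrk and Bcl2l2, and Bcl2a1a and Bcl2a1d in the comparison with saline, were named beyond that rule after their values were seen. Some results withheld for evaluation are left out.

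Alternatives were no filter, a mean FPKM of at least 1, filterByExpr, RLE and upper-quartile scaling, DESeq2 1.42.0, limma 3.58.1 on log2(FPKM + 1) and log2(FPKM + 0.1), robust estimation, the 6 libraries compared, a replicate block, a urothelial covariate (uroplakins and Krt20), the Bcl2a1 rows summed and each library left out. A covariate of the uroplakins alone and, for the pathway lists, each library left out were added after seeing the data. No column of the table was left unmapped. Figures were drawn with matplotlib 3.10.9.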

Additional observations from a re-analysis of the deposited data

How the results depend on the processing

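Calls in LPS against saline and in LPS+Tβ4 against saline were steadier than those in LPS+Tβ4 against LPS. In LPS against saline (5 members, 6473 genes called), the urothelial covariate left 1 member (Bak1, 1.83) and 1201 genes, and fits that leave out 1 library gave 5 to 7 members and 4884 to 6903 genes. That covariate includes Krt20, which differed between LPS and saline, and with the uroplakins alone 5 members were called. Under the covariate with Krt20, Bcl2l1 differed by 1.51, Mcl1 by 0.91, Bbc3 by 1.48 and Bcl2 by -0.68, with adjusted p of 0.055 to 0.27. In LPS+Tβ4 against saline (6 members, 3617 genes), the urothelial covariate left 3 members and 1142 genes, and leaving out 1 library gave 4 to 7 members and 2119 to 4544 genes. In LPS+Tβ4 against LPS (3 members, 1025 genes), the counts of members were 1 with no filter, 1 with limma at either pseudocount, 1 with the uroplakin covariate, and 0 with the urothelial covariate and with the 6 libraries compared. The counts of genes there were 647 with no filter, 2442 with DESeq2, 3 with the 6 libraries and 26 with the urothelial covariate, and leaving out 1 library gave 0 to 3 members and 68 to 2672 genes. Over the 7 pathway lists 3 genes were called there, against 13 with DESeq2, 0 with the 6 libraries and 0 to 17 without 1 library. The causes were not tested.

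Same-numbered libraries of different groups correlated between -0.66 and 0.33 in their deviations from the group means. The labels do not say whether the numbers pair mice. These correlations cannot settle it, because libraries of the same group also differed in uroplakin RNA. With the replicate number as a block, LPS+Tβ4 against LPS had 0 members, 0 genes of the pathway lists and 5 genes in all called, LPS against saline 5 and 5284, and LPS+Tβ4 against saline 6 and 2474.

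In LPS+Tβ4 against LPS, the split of higher and lower genes was 675 and 350 with TMM. It was 636 and 348 with RLE and 780 and 281 with upper-quartile scaling. Upper-quartile scaling thus came close to limma on log2(FPKM + 1), which gave 759 and 251 there. Limma on FPKM changes values, scaling and test together. In LPS+Tβ4 against saline, 1852 genes were higher and 1765 lower, against 2465 and 1327 with limma on log2(FPKM + 1) and 2560 and 1204 with log2(FPKM + 0.1). In LPS+Tβ4 against LPS, 737 were higher and 209 lower with log2(FPKM + 0.1). The median of all tested genes stood at 0.11 and 0.14 in LPS against saline, and at 0.14 and 0.19 in LPS+Tβ4 against saline, with these limma fits. Their call of a Bid fall against saline was lost (-0.54 and -0.58, adjusted p = 0.11 each).

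Reversals touched members that passed no test. Bax in LPS+Tβ4 against LPS turned to 0.042 with upper-quartile scaling, 0.057 with limma at a pseudocount of 1 and 0.060 at 0.1, 0.0025 with the 6 libraries and 0.0031 with the block, and ranged over -0.13 to 0.12 without 1 library. Pmaip1 in LPS+Tβ4 against LPS ranged over -0.22 (without LPS mouse 1) to 0.41, and Bcl2l11 in LPS+Tβ4 against saline over -0.083 (without LPS+Tβ4 mouse 3) to 0.31. Counts of 29 to 65 for Bcl2a1b and Bbc3 in saline libraries limit the precision of their changes.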
